A study of Mus musculus with 23 samples.

Results

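The 49 mitosis genes studied here are genes whose products enter, run or close the division of a cell, and a row was taken as a member by its gene symbol, with no threshold on its values. All 49 had a row among the 35322 rows of the deposited table, and all 49 were among the 16795 genes that passed the filter on low values, at least 0.5 RPM (reads scaled by the size of the library) in at least 4 of the 23 libraries. The data were RNA-Seq of lung from Balb/c mice, 13-week-old offspring that the methods describe as female, with polyA RNA made into 1 library per animal. The dams of the Sham (n = 7) and Sham-OVA (n = 5) groups received saline in the nose, and the dams of the PM (n = 7) and PM-OVA (n = 4) groups received PM2.5, fine particulate air pollution suspended in saline, from before mating until weaning. Sham-OVA and PM-OVA offspring were sensitised to ovalbumin (OVA) with alum and then inhaled it, which models allergic airway disease (AAD), whereas the labels give PBS to the Sham and PM offspring. The labels name no litters, so the p-values measure the spread between these animals, of which some may share a dam.

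At the entry into mitosis, Cdk1 bound to cyclin A or cyclin B phosphorylates a wide range of proteins, and the kinases Plk1 and the Aurora family act beside it. Condensins compact the chromosomes, kinesins and microtubule binding proteins build the spindle, and the spindle checkpoint holds back the anaphase-promoting complex until every chromosome is attached. Cdc20 then switches that complex on, securin and cyclin B are destroyed, separase cuts cohesin, and the passenger complex and the central spindle guide the cell to its final split. Most of these genes are transcribed from late S phase to mitosis, under the factors Foxm1 and Mybl2 with the MuvB complex, so in an adult lung, where few cells divide, their transcripts are usually scarce and come from the dividing minority. In whole lung RNA, fewer cells of a type and less RNA per cell cannot be told apart.

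Gene counts summed to between 13089691 and 17393579 reads in each saline library and from 10345173 to 12355561 in 6 of the 9 OVA libraries. The other 3 OVA libraries were shallower, with 2298645 reads in Sham-OVA replicate 3, 5922469 in PM-OVA replicate 3 and 4324326 in PM-OVA replicate 4. A single read was worth 0.311 RPM in Sham-OVA replicate 3 and at most 0.0688 RPM in a saline library, so members at low levels were known least precisely in the former. Sham replicate 1 went against the female sex given in the methods, with 0.289 RPM of Xist and 54.0 RPM of the Y-linked Eif2s3y. Results were therefore also computed without each of these libraries. Over all genes tested the median difference after OVA was -0.48 for the offspring of Sham dams and -0.43 for those of PM dams, so a gene with a difference of 0 lay above the median gene. Differences are given throughout on the scale of log2(RPM + 0.5), with limma tests adjusted over all 16795 genes by the method of Benjamini and Hochberg, and n is 7, 7, 5 and 4 in Sham, PM, Sham-OVA and PM-OVA.

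The promoters of mitosis genes carry 2 short elements that are known to bind the factors of their shared timing, the cell cycle homology region (CHR, TTTGAA), which MuvB complexes bind, and CCAAT, which NF-Y binds. A RefSeq promoter of build GRCm38.p6, 250 bases before to 50 after the transcription start, was matched for 40 of the 49 members, 2 of which had 2 windows. No such window was used for Foxm1, Cdca2, Ccna2, Aurkb, Tpx2, Kif20a, Pbk, Dlgap5 and Smc4. TTTGAA stood on either strand in 31 of the 40 (77.5%), against 20.2% of all 27025 genes with a window of this length. CCAAT stood in 31 of the 40 (77.5%), against 41.1% of all genes, and both stood in 27 (67.5%), against 7.97%. An E2F word (TTTCCCGC, TTTCGCGC, TTTGCCGC or TTTGGCGC) was found in 4 of the 40, Cdk1, Kif15, Ncapd2 and Ncapg, and in 2.60% of all genes. The words of different motifs overlapped once, 1 case over all 42 windows of the members. A match is a run of letters and not a measured binding site.

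The 250 bases before the start are shown for 4 members that hold both motifs, because promoters with the same motifs went with large differences and with none that passed. Cdk1 and Cdc20 had the largest differences after OVA of the members with both motifs, whereas Top2a was 1 of the rising members and Mki67 was not. Sequences run 5′ to 3′ on the strand of the gene, and capitals mark the CHR, CCAAT and the E2F words, each on either strand.
Cdk1 (chr10:69352913-69353162, minus strand): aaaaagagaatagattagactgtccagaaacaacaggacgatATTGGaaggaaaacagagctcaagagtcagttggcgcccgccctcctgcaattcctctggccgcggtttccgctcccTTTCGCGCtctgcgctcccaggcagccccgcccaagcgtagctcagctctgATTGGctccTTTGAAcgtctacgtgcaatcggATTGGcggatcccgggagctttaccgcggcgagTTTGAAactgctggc
Cdc20 (chr4:118437344-118437593, minus strand): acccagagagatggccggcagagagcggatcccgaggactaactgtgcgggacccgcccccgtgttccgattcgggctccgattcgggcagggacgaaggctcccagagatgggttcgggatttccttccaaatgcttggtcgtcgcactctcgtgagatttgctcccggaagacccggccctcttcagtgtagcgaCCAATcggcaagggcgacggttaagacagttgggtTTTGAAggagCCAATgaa
Top2a (chr11:99024190-99024439, minus strand): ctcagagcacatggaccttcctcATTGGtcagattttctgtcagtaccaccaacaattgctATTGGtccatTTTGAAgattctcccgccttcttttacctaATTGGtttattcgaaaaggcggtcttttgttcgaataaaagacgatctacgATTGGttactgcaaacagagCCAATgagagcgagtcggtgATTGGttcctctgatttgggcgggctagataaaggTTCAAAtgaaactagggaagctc
Mki67 (chr7:135716380-135716629, minus strand): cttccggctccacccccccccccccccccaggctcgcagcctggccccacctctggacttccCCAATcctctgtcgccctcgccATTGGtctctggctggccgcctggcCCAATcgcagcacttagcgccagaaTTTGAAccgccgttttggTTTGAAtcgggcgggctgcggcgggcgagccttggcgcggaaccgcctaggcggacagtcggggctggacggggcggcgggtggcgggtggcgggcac

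Cdk1 held 2 copies of TTTGAA, 3 of CCAAT and 1 E2F word in this stretch, and Cdc20 held 1 and 2 of the first and the second. Top2a held 2 and 6, and Mki67 held 2 and 3. The promoters of Mki67 and of the strongly rising Cdk1 thus carried the same numbers of both motifs. Among the 40 members, the median difference of Sham-OVA against Sham was 1.997 for the 31 with TTTGAA and 1.24 for the 9 without it (Birc5, Bub1, Ccnb1, Cenpe, Melk, Mybl2, Ncaph, Nek2 and Nusap1), with a range from -0.71 to 3.73 in the first set and from -0.89 to 3.32 in the second. The same medians for PM-OVA against PM were 1.28 and 0.44. For CCAAT the split in Sham-OVA went the other way, with 1.97 in the 31 that held it and 2.26 in the 9 that did not. In PM-OVA these CCAAT medians were 1.13 and 0.99. For an E2F word the Sham-OVA medians were 2.51 in the 4 with it and 1.88 in the 36 without. None of these splits was tested.

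The first question was whether OVA challenge moved the mitosis genes in the offspring of Sham dams and in the offspring of PM2.5 dams. In Sham-OVA against Sham, 37 of the 49 rose and 0 fell at an adjusted p under 0.05 in the limma fit, with a median log2 difference of 1.83. Over all genes tested 20.6% rose and 47.5% fell. In PM-OVA against PM, 30 of the 49 rose and 2 fell, Kif20b and Smc4, with a median of 1.04, and over all genes 20.1% rose and 45.2% fell. Every Sham-OVA library lay above every Sham library for 26 members (13.2% of all genes), and every PM-OVA library above every PM library for 17 (13.3%). The study set its threshold for differentially expressed genes (DEGs) on DESeq2 results, at adjusted p below 0.000001 with a log2 difference beyond 1 either way. With DESeq2 on the recovered reads, 34 members were upregulated at this threshold in Sham-OVA (13.7% of all genes) and 17 in PM-OVA (10.5%). The same threshold on the limma fit gave 14 (1.98%) and 0 (0.262%), and edgeR gave 22 (5.6%) and 0 (0.25%), so these counts depended on the tool. With array weights in limma, 22 members rose in PM-OVA and 8 fell, Kif20b, Smc4, Nek2, Ect2, Smc2, Ncapd2, Mki67 and Anln, against 19.5% and 50.7% of all genes.

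Summed over the 49 members, the level was 196 ± 27.5 RPM (SD, n = 7) in Sham and 249 ± 84.6 RPM (SD, n = 7) in PM. After OVA it reached 670.5 ± 259 RPM (SD, n = 5) for Sham dams, and for PM dams 466 ± 104 RPM (SD, n = 4). Both OVA groups lay above their saline groups with the exception that PM replicate 5, at 429 RPM, exceeded PM-OVA replicate 3 at 343 RPM. In the map of all members by library, the OVA columns are red in most rows, and a set of rows that includes Mki67, Nek2, Kif20b, Ect2, Ncapd2 and Smc4 turns blue in the 3 shallow OVA libraries.

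**Figure D1:**
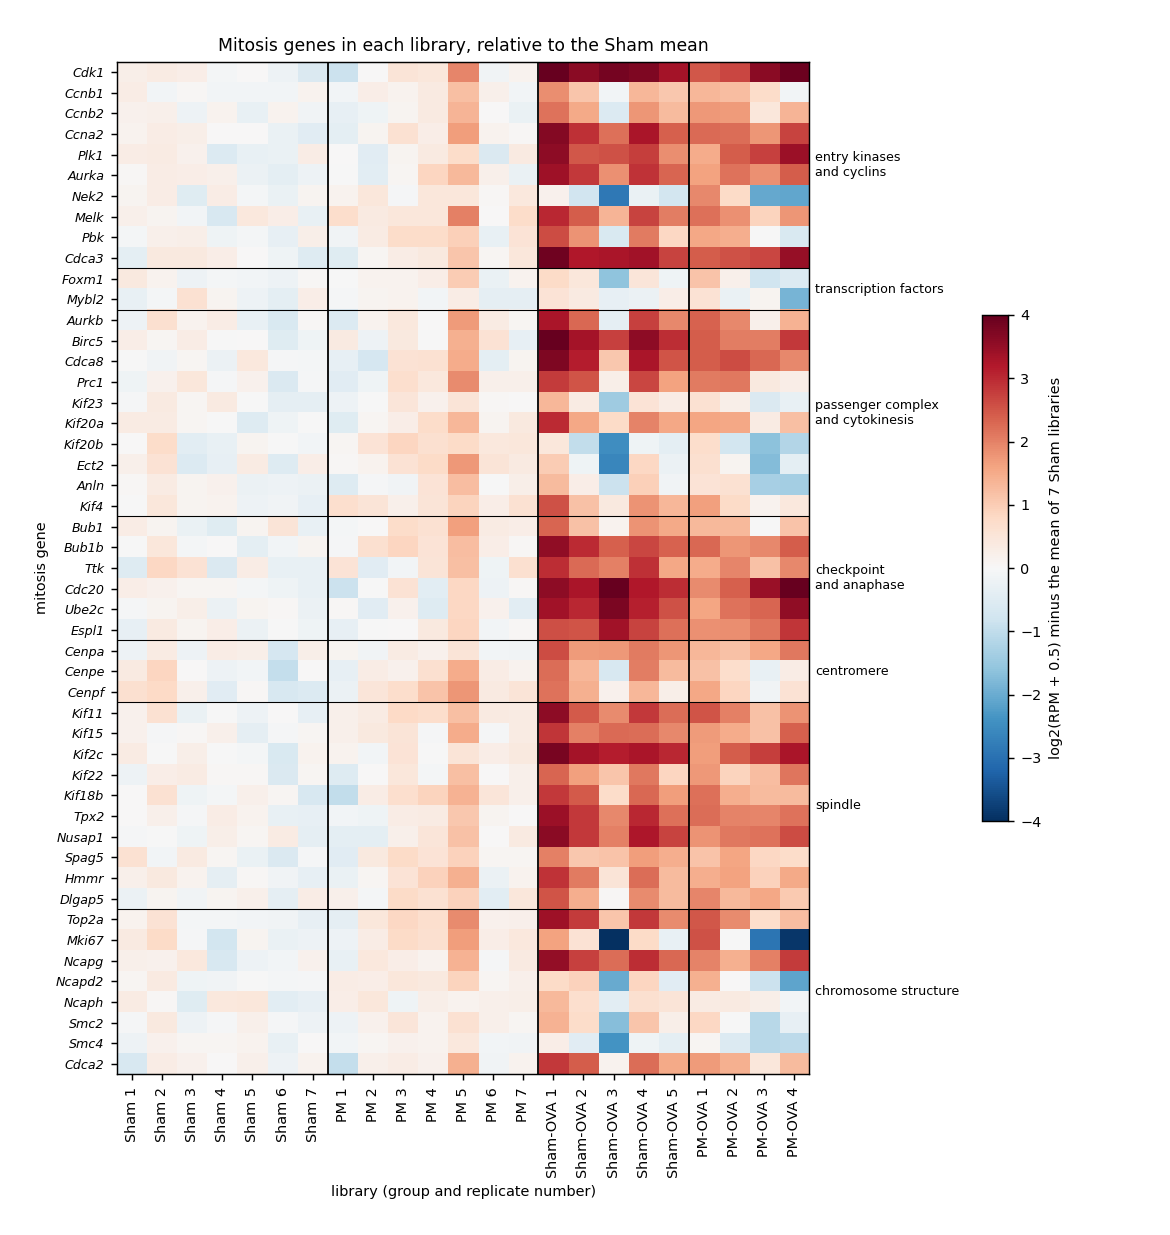
Each row is 1 of the 49 mitosis genes, grouped by role, and each column is 1 of the 23 libraries. Colour gives log2(RPM + 0.5) minus the mean of the 7 Sham libraries, clipped at -4 and 4: red is above and blue is below that mean, and PM replicate 5 is the reddest column of the 14 saline libraries.

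Among the 10 kinases, cyclins and partners of mitotic entry, 9 rose in Sham-OVA (median 2.48) and 7 in PM-OVA (median 1.46). Cdk1, the kinase that starts mitosis, lay from 1.81 to 3.80 RPM (median 2.95) in Sham and from 1.38 to 12.7 RPM (median 3.30) in PM. In the 5 Sham-OVA libraries, in replicate order, it was 61.7, 40.9, 47.8, 45.5 and 33.8 RPM, and in the 4 PM-OVA libraries 18.7, 21.6, 40.9 and 51.4 RPM. No OVA library overlapped a saline library of its own cohort, and the 2 lowest OVA values were PM-OVA replicates 1 and 2. The log2 difference was 3.73 ± 0.20 (SE) in Sham-OVA (adjusted p = 6.1e-09, limma), 13.3-fold on this scale and the largest of all 49, and 2.88 ± 0.45 (SE) in PM-OVA (adjusted p = 2.3e-04). Its partner Ccna2, cyclin A2, rose by 2.89 ± 0.24 (SE) in Sham-OVA (adjusted p = 2.3e-07) and by 1.90 ± 0.33 (SE) in PM-OVA (adjusted p = 4.0e-04).

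Melk, a kinase of dividing and progenitor cells, lay from 0.317 to 1.23 RPM (median 0.887) in Sham and from 0.794 to 4.64 RPM (median 1.25) in PM. It was 9.80, 6.39, 2.80, 7.81 and 4.82 RPM in Sham-OVA and 5.44, 4.02, 1.86 and 3.81 RPM in PM-OVA. All Sham-OVA values were above all Sham values, whereas PM replicate 5, the highest PM library, was above 3 of the 4 PM-OVA libraries. Melk rose by 2.31 ± 0.28 (SE) in Sham-OVA (adjusted p = 6.5e-06, limma) and by 0.99 ± 0.35 (SE) in PM-OVA (adjusted p = 0.0251), and the call in PM-OVA was lost without PM-OVA replicate 1, 2 or 4, where the difference was between 0.81 and 0.97, with array weights (0.77), at one depth for all libraries (0.96) and with no filter on low values. Nek2, a centrosome kinase, was the member of this group that did not rise. It lay from 3.76 to 6.85 RPM (median 5.83) in Sham and from 5.30 to 7.64 RPM (median 7.51) in PM, and was 6.18, 3.01, 0.311, 4.38 and 3.07 RPM in Sham-OVA and 21.8, 9.66, 0.929 and 0.908 RPM in PM-OVA. After OVA, 3 of the 5 libraries from Sham dams lay below Sham (adjusted p = 0.0599), and the PM-OVA libraries lay on either side of PM, 2 above and 2 below (adjusted p = 0.394). Ccnb1, cyclin B1, was near the floor, at most 0.173 RPM in Sham and 1.46 RPM in Sham-OVA, and it had 0 reads in Sham-OVA replicate 3, where 3 reads would have been 0.932 RPM. GENCODE lists the pseudogenes Ccnb1-ps and Kif4-ps beside Ccnb1 and Kif4, and how reads that match both copies were counted was not stated, so the levels of both genes are uncertain.

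Neither of the 2 transcription factors that drive this programme, Foxm1 and Mybl2, passed the test after OVA in either cohort. Foxm1 lay from 5.85 to 9.06 RPM (median 6.34) in Sham and from 5.56 to 14.1 RPM (median 7.52) in PM, and was 11.8, 9.55, 1.86, 9.64 and 5.92 RPM in Sham-OVA and 15.6, 7.81, 3.72 and 4.54 RPM in PM-OVA. The deeper OVA libraries lay within or above the saline range, and the 3 shallow ones lay below it. Mybl2 was at most 2.26 RPM in Sham and was 2.15, 1.81, 0.932, 1.04 and 1.68 RPM in Sham-OVA and 2.22, 1.00, 1.46 and 0 RPM in PM-OVA, with all groups overlapping. PM-OVA replicate 4 held 0 reads of Mybl2, where 3 reads would have been 0.545 RPM.

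Of the 10 genes of the chromosomal passenger complex, the central spindle and cytokinesis, 6 rose in Sham-OVA and 4 in PM-OVA. Birc5, survivin of the passenger complex, lay from 0.9297 to 1.91 RPM (median 1.51) in Sham and from 1.08 to 4.75 RPM (median 2.06) in PM. It was 30.9, 19.6, 12.7, 23.2 and 14.7 RPM in Sham-OVA and 10.2, 7.73, 7.70 and 13.6 RPM in PM-OVA. No OVA library overlapped a saline library, and 3 of the 4 PM-OVA values lay below every Sham-OVA value. Birc5 rose by 3.32 ± 0.23 (SE) in Sham-OVA (adjusted p = 5.0e-08, limma) and by 2.03 ± 0.31 (SE) in PM-OVA (adjusted p = 2.2e-04). Kif4, a chromosome-bound kinesin of the central spindle, lay from 1.31 to 2.60 RPM (median 1.73) in Sham and from 2.08 to 3.70 RPM (median 2.76) in PM, and was 12.6, 4.59, 2.49, 7.41 and 5.19 RPM in Sham-OVA and 6.52, 3.32, 1.99 and 2.54 RPM in PM-OVA. It rose by 1.45 ± 0.30 (SE) in Sham-OVA (adjusted p = 6.3e-04) and did not pass in PM-OVA (adjusted p = 0.484), where the libraries overlapped PM.

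Kif20b, a kinesin of late cytokinesis, was lower in PM-OVA. It lay from 1.56 to 4.12 RPM (median 2.27) in Sham and from 2.41 to 4.52 RPM (median 3.53) in PM, and was 3.34, 0.903, 0, 1.99 and 1.61 RPM in Sham-OVA and 4.03, 1.16, 0.398 and 0.726 RPM in PM-OVA. PM-OVA replicate 1 lay within the PM range and the other 3 lay below it, so that the fall by 1.25 ± 0.36 (SE) on the log2 scale (adjusted p = 0.00838, limma) rested on PM-OVA replicates 2, 3 and 4. The call was lost with DESeq2, with edgeR, with all libraries thinned to one depth and without the 3 shallow OVA libraries, where the difference was between -0.84 and -0.56. Kif20b did not pass in Sham-OVA (adjusted p = 0.122). Ect2, which activates RhoA at the cleavage plane, Anln, which scaffolds the contractile ring, and Kif23, a motor of the central spindle, passed in neither cohort. Kif20b and Ect2 had 0 reads in Sham-OVA replicate 3, under the same floor as Ccnb1. Ect2 was 5.63, 2.18, 0, 4.86 and 2.04 RPM in Sham-OVA and 4.23, 2.78, 0.398 and 1.82 RPM in PM-OVA. Anln was 13.8, 6.70, 2.80, 11.2 and 4.89 RPM and 8.20, 8.66, 1.86 and 1.82 RPM in the same order of groups, and Kif23 was 13.3, 6.47, 1.55, 7.57 and 6.28 RPM and 7.86, 5.95, 3.19 and 3.99 RPM. In these 3 genes the lowest Sham-OVA library was replicate 3, and replicates 3 and 4 were the lowest of PM-OVA.

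All 6 genes of the spindle checkpoint and of anaphase rose in Sham-OVA (median 2.73), and 5 of them in PM-OVA (median 1.82). Cdc20, the activator of the anaphase-promoting complex, lay from 1.46 to 2.37 RPM (median 2.03) in Sham and from 0.825 to 3.81 RPM (median 1.89) in PM. It was 28.6, 22.7, 42.6, 21.6 and 17.97 RPM in Sham-OVA and 8.47, 12.1, 26.0 and 39.8 RPM in PM-OVA, every OVA library above every saline library. Its highest values were in the shallow libraries Sham-OVA replicate 3 and PM-OVA replicate 4, the reverse of Nek2 and Foxm1. Cdc20 rose by 3.43 ± 0.22 (SE) in Sham-OVA (adjusted p = 2.1e-08, limma) and by 2.96 ± 0.41 (SE) in PM-OVA (adjusted p = 1.3e-04). Bub1b, a checkpoint protein of the kinetochore, lay from 1.39 to 2.91 RPM (median 1.96) in Sham and from 1.93 to 5.399 RPM (median 3.16) in PM, and was 28.6, 19.0, 12.4, 15.4 and 12.1 RPM in Sham-OVA and 11.8, 7.96, 8.90 and 12.7 RPM in PM-OVA. OVA and saline libraries did not overlap, and Bub1b rose by 2.79 ± 0.23 (SE) (adjusted p = 2.2e-07) and 1.59 ± 0.26 (SE) (adjusted p = 3.2e-04) in Sham-OVA and PM-OVA. Bub1, a kinase of the same checkpoint, showed the smallest rise of the 6 in Sham-OVA, 1.39 ± 0.32 (SE) (adjusted p = 0.00142), and did not pass in PM-OVA (adjusted p = 0.280), where it was 4.10, 4.10, 1.33 and 3.63 RPM against 1.24 to 5.28 RPM in PM.

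The 3 centromere genes rose in Sham-OVA and 1 of them in PM-OVA. Cenpa, the histone H3 variant that marks centromeres, lay from 6.22 to 13.0 RPM (median 12.1) in Sham and from 9.21 to 14.8 RPM (median 11.01) in PM. It was 64.3, 34.2, 35.1, 44.9 and 36.1 RPM in Sham-OVA and 26.7, 23.6, 30.8 and 45.8 RPM in PM-OVA, with no overlap between OVA and saline. Cenpa rose by 1.97 ± 0.22 (SE) (adjusted p = 2.6e-06, limma) and 1.43 ± 0.20 (SE) (adjusted p = 1.4e-04). Cenpf, a kinetochore protein with a very long transcript, rose by 1.06 ± 0.37 (SE) in Sham-OVA (adjusted p = 0.0190), a call that was lost without Sham-OVA replicate 1, where the difference was 0.78, and at one depth for all libraries (0.94). In PM-OVA it was 12.2, 7.34, 3.45 and 5.99 RPM against 3.16 to 14.3 RPM in PM and did not pass (adjusted p = 0.932).

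All 10 spindle genes rose in Sham-OVA (median 2.13) and all 10 in PM-OVA (median 1.30). Kif2c, a kinesin that depolymerises microtubules, lay from 0 to 0.462 RPM (median 0.254) in Sham and from 0.205 to 0.623 RPM (median 0.428) in PM. It was 10.2, 7.15, 6.21, 6.77 and 5.70 RPM in Sham-OVA and 1.95, 3.56, 4.65 and 6.90 RPM in PM-OVA, clear of all saline values. Its rise was 3.31 ± 0.21 (SE) in Sham-OVA (adjusted p = 2.1e-08, limma) and 2.28 ± 0.27 (SE) in PM-OVA (adjusted p = 5.3e-05). Kif15, a kinesin that helps to hold the spindle poles apart, lay from 1.17 to 1.97 RPM (median 1.74) in Sham and from 1.58 to 5.58 RPM (median 2.22) in PM, and was 15.01, 8.12, 9.94, 9.72 and 7.74 RPM in Sham-OVA and 6.58, 5.49, 4.38 and 10.7 RPM in PM-OVA. Sham-OVA and Sham did not overlap, whereas PM replicate 5 was above 2 PM-OVA libraries. Kif15 rose by 2.26 ± 0.20 (SE) (adjusted p = 3.7e-07) and 1.28 ± 0.31 (SE) (adjusted p = 0.00318). Kif11, the motor that separates the poles, rose by 2.60 ± 0.28 (SE) (adjusted p = 1.9e-06) and 1.32 ± 0.27 (SE) (adjusted p = 0.00112), and Nusap1, which bundles spindle microtubules, by 2.89 ± 0.25 (SE) (adjusted p = 3.4e-07) and 1.97 ± 0.29 (SE) (adjusted p = 1.8e-04). Dlgap5, another microtubule binding protein, showed the smallest rise of the group in Sham-OVA, 1.44 ± 0.33 (SE) (adjusted p = 0.00141), and rose by 1.10 ± 0.28 (SE) in PM-OVA (adjusted p = 0.00387).

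The 8 genes of chromosome structure split, with 3 that rose in Sham-OVA and the same number in PM-OVA, Top2a, Ncapg and Cdca2 in each. Top2a, the topoisomerase that untangles chromosomes, lay from 5.12 to 10.01 RPM (median 6.15) in Sham and from 4.95 to 25.8 RPM (median 9.10) in PM. It was 73.8, 48.8, 14.6, 50.04 and 25.6 RPM in Sham-OVA and 38.8, 25.4, 11.02 and 16.2 RPM in PM-OVA. All Sham-OVA libraries were above Sham, whereas PM replicate 5 was above 3 PM-OVA libraries. Top2a rose by 2.40 ± 0.32 (SE) in Sham-OVA (adjusted p = 1.6e-05, limma) and by 1.03 ± 0.40 (SE) in PM-OVA (adjusted p = 0.0384), and the second call was lost without any 1 of PM replicates 1, 2, 4, 6 and 7 and PM-OVA replicates 1 and 2, where the difference was between 0.73 and 1.05, and also with array weights (0.69) and with no filter on low values. Ncapg, a condensin subunit, rose by 2.75 ± 0.26 (SE) (adjusted p = 5.9e-07) and 1.74 ± 0.32 (SE) (adjusted p = 6.2e-04).

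Mki67, which coats mitotic chromosomes and is the usual marker of dividing cells, did not pass in either cohort. It lay from 7.17 to 21.3 RPM (median 11.8) in Sham and from 10.6 to 40.3 RPM (median 16.5) in PM. In Sham-OVA it was 38.1, 18.5, 0.311, 21.3 and 9.93 RPM and in PM-OVA 74.2, 12.2, 1.19 and 0.363 RPM. Sham-OVA replicate 1 and PM-OVA replicate 1 were above every saline library of their cohort, 4 OVA libraries were within or near the saline range, and the 3 shallow OVA libraries were below all saline libraries. The difference was -0.26 ± 0.70 (SE) in Sham-OVA (adjusted p = 0.751, limma) and -1.61 ± 0.93 (SE) in PM-OVA (adjusted p = 0.142), with 95% intervals of -1.75 to 1.23 and -3.62 to 0.40, and its sign changed with the processing. Without the 3 shallow OVA libraries the value for Sham-OVA was 0.66, and for PM-OVA, from replicates 1 and 2 alone, 0.73. In PM-OVA it passed as lower without PM-OVA replicate 1 (-2.81) and with array weights (-3.05).

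The condensin subunits Smc4, Smc2 and Ncapd2 had the same low libraries as Mki67. Smc4 lay from 39.8 to 56.1 RPM (median 52.4) in Sham and from 44.6 to 66.4 RPM (median 51.8) in PM, and was 60.2, 35.7, 9.01, 44.2 and 37.4 RPM in Sham-OVA and 51.9, 33.9, 22.7 and 23.6 RPM in PM-OVA. It fell by 0.72 ± 0.21 (SE) on the log2 scale in PM-OVA (adjusted p = 0.00927, limma), with PM-OVA replicate 1 within the PM range and the other 3 below it, and did not pass in Sham-OVA (adjusted p = 0.111). With median-of-ratios scaling, quantile normalisation, DESeq2 or edgeR, or without the 3 shallow OVA libraries, the difference in PM-OVA was between -0.36 and -0.30 and no longer passed. Smc2 was 38.7, 24.3, 4.04, 31.8 and 17.2 RPM in Sham-OVA and 26.0, 14.2, 6.37 and 11.3 RPM in PM-OVA, against 12.3 to 18.9 RPM in Sham and 12.4 to 22.3 RPM in PM. Ncapd2 was 7.30, 8.05, 0.621, 7.81 and 2.85 RPM in Sham-OVA and 11.7, 4.10, 1.99 and 0.545 RPM in PM-OVA, against 3.53 to 5.38 RPM in Sham and 4.28 to 7.92 RPM in PM. Neither passed in either cohort.

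**Figure D2:**
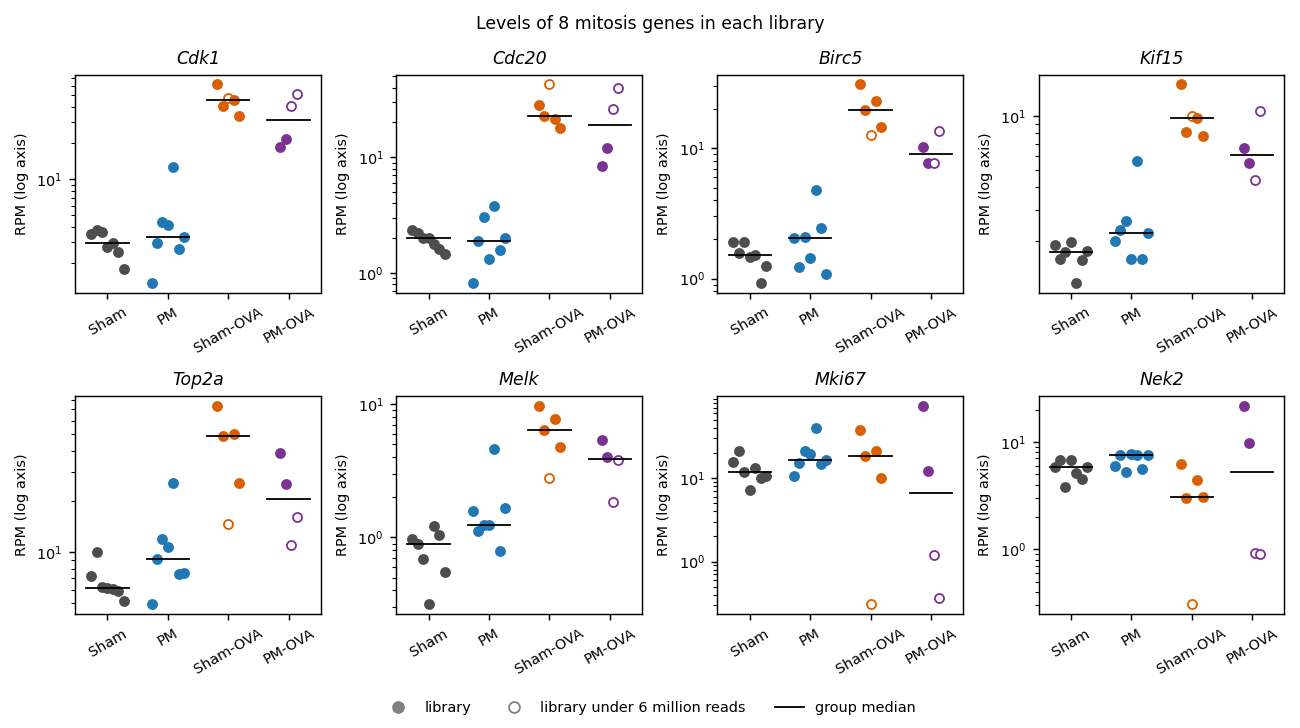
RPM on a log axis for 8 members, 1 point per library and a line at the group median, with open points for the 3 shallow OVA libraries. Cdk1 and Cdc20 are separated between OVA and saline in every library, whereas the open points of Mki67 and Nek2 fall below the saline range.

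**Figure D3:**
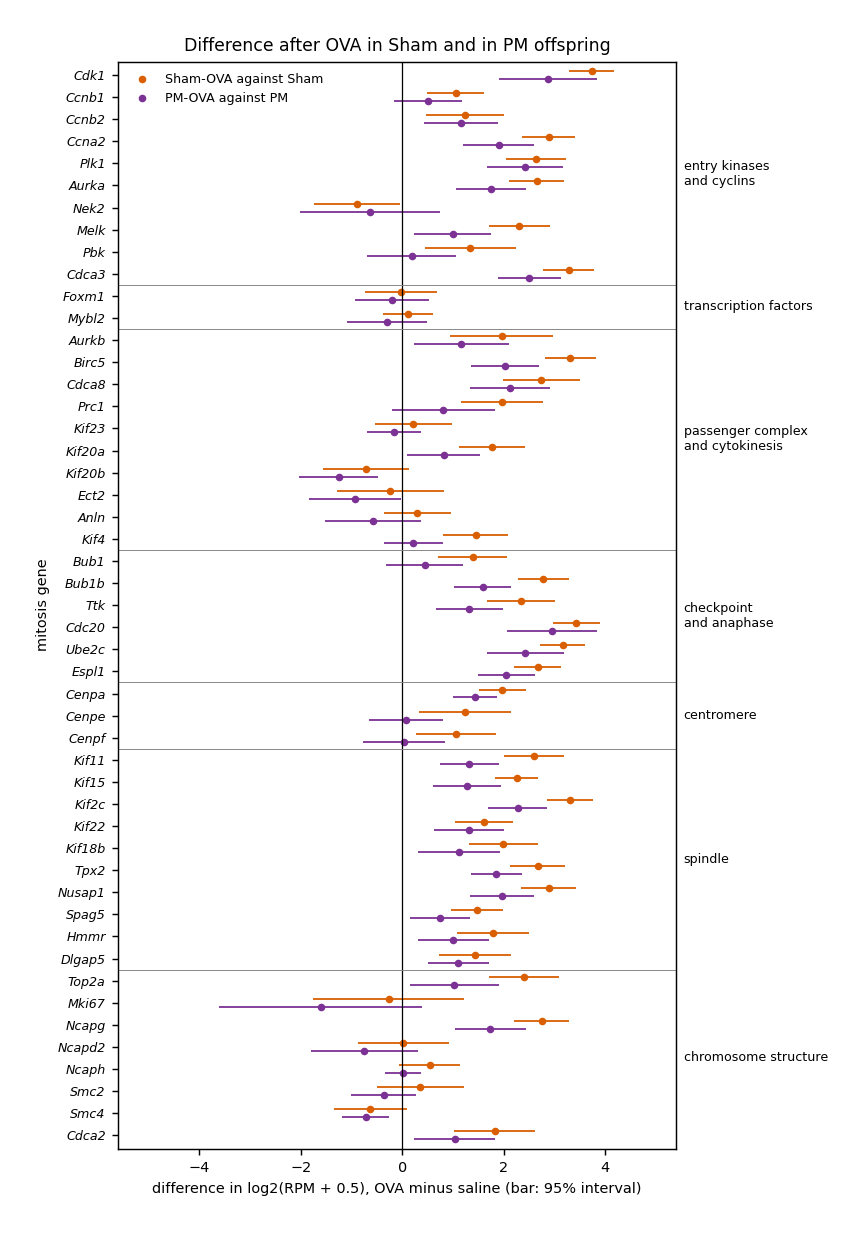
Difference in log2(RPM + 0.5) of Sham-OVA minus Sham and of PM-OVA minus PM for each member, with its 95% interval, grouped by role. The spindle genes lie to the right of 0 in both cohorts, and Mki67 has the widest interval of all members.

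The 3 shallow OVA libraries separated the members from each other. In 25 of the 49, among them Mki67, Nek2, Ncapd2, Pbk, Prc1, Aurkb, Ect2 and Smc2, all 3 lay below all 6 deeper OVA libraries, against 38.2% of all genes tested, and in 0 all 3 lay above (7.14% of all genes). Mki67 averaged 0.623 RPM in the 3 and 29.0 RPM in the 6, and Nek2 0.716 and 8.01 RPM. At the other end Cdc20 averaged 36.1 and 18.6 RPM, Ube2c, the ubiquitin-conjugating enzyme of anaphase, 7.74 and 5.01 RPM, and Espl1, separase, 25.5 and 17.2 RPM. Within a library, Mki67 was 2.63 to 5.92 times the RPM of Cdk1 in Sham and 3.17 to 7.7 times in PM. The same ratio was 0.00649 to 0.617 in Sham-OVA and 0.00707 to 3.96 in PM-OVA, where replicate 1 alone was within the saline range. Across the 49 genes, the difference between shallow and deeper OVA libraries had a Pearson r of 0.28 with GC content and -0.29 with log exon length, a description over genes that share these libraries. Over all genes, the departure of an OVA library from the Sham mean had r of 0.16 to 0.31 with GC content and -0.34 to -0.24 with log length. The saline libraries had -0.16 to 0.17 and -0.27 to 0.27. The members' own OVA differences had r of 0.19 (Sham-OVA) and 0.31 (PM-OVA) with GC content, and -0.31 and -0.42 with log length. Depth, GC content and length moved with the split, and their part in it or in the OVA differences was not tested.

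**Figure D4:**
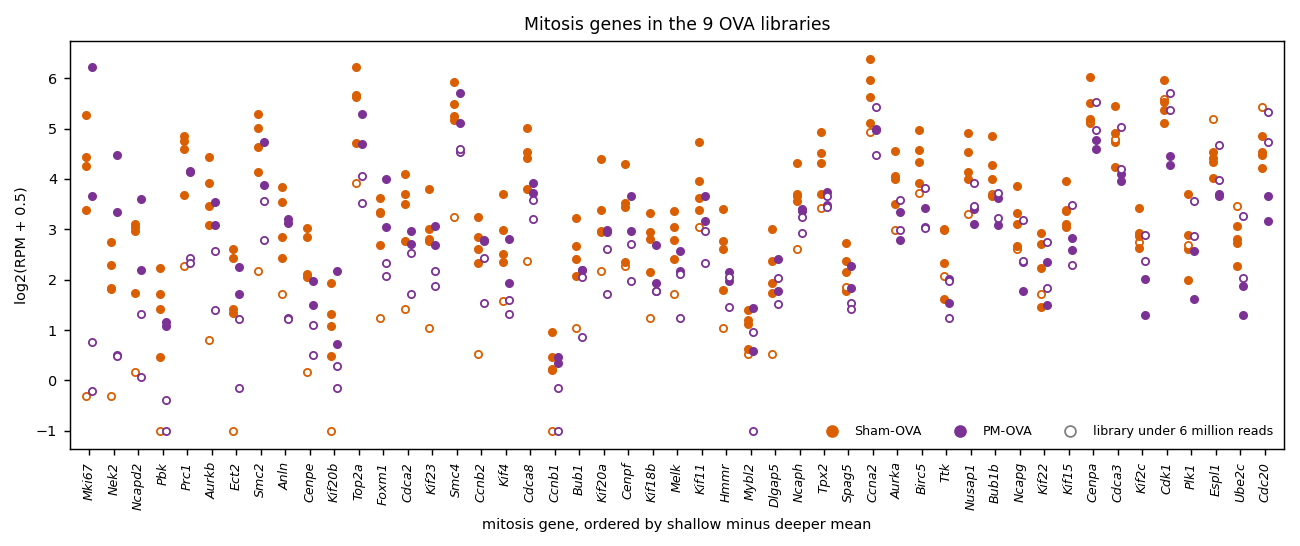
Level of every member, as log2(RPM + 0.5), in the 5 Sham-OVA and 4 PM-OVA libraries, with open points for the 3 shallow ones. Members are ordered from Mki67, where the open points are lowest relative to the filled ones, to Cdc20, where they are highest.

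Without the 3 shallow OVA libraries, 41 of the 49 rose in Sham-OVA and 35 in PM-OVA, and none fell in either, a choice made after the data were seen. PM-OVA was then replicates 1 and 2 alone, and Sham-OVA was replicates 1, 2, 4 and 5, so the PM-OVA spread was poorly known. Of all genes tested, 25.1% then rose and 47.2% fell in Sham-OVA, with 19.7% and 31.3% for PM-OVA. Leaving out each library in turn gave 35 to 41 risen members in Sham-OVA, and 37 without Sham replicate 1. Of the 16795 genes, 3196 to 4221 rose in these runs, and 3259 without Sham replicate 1. For PM-OVA the runs gave 23 to 32 risen members, against 3100 to 3607 of all genes. Without PM-OVA replicate 1 the members that fell were 7 in place of 2, and without Sham-OVA replicate 1 they were 3 in place of 0. Of the 16795 genes, 8476 and 8149 fell in these runs.

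The second question was whether the challenged offspring of PM2.5 dams differed from those of Sham dams. In PM-OVA against Sham-OVA, 0 of the 49 members and 0% of all genes passed at an adjusted p under 0.05 (limma), and none of the 49 passed with DESeq2 or edgeR. At an unadjusted p under 0.05 there were 2 members, Birc5 and Bub1b, against 1.86% of all genes. DESeq2 gave 13 members at this level, against 583 of the 16795 genes, and edgeR 11, against 471. The fitted difference was below 0 in 45 of the 49, with a median of -0.50, against 47.7% of all genes and a median of 0.01. The 49 genes share the same 9 libraries and are not independent. No member had all PM-OVA libraries below all Sham-OVA libraries (0.298% of all genes) and none had them all above.

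Birc5 had the smallest p, with a difference of -0.97 ± 0.31 (SE) and a 95% interval of -1.67 to -0.28 (limma, adjusted p = 1). Of its 4 PM-OVA values, 3 lay below the lowest Sham-OVA value and replicate 4 lay above it. Bub1b differed by -0.68 ± 0.30 (SE) (interval -1.36 to -0.01), Kif2c by -0.78 ± 0.36 (SE) (interval -1.59 to 0.03), Nusap1 by -0.71 ± 0.34 (SE) (interval -1.47 to 0.05) and Ccna2 by -0.64 ± 0.32 (SE) (interval -1.36 to 0.08). In all 4 the lowest OVA library was a PM-OVA library and the highest was Sham-OVA replicate 1. Top2a differed by -0.83 ± 0.50 (SE) (interval -1.96 to 0.30), Melk by -0.64 ± 0.41 (SE) (interval -1.57 to 0.28), Kif15 by -0.57 ± 0.32 (SE) (interval -1.29 to 0.15) and Mki67 by -0.80 ± 1.45 (SE) (interval -4.04 to 2.44). These intervals include 0 and also differences of more than 1 below 0, so neither equality nor a fall was shown for these 4 genes. Nek2 was the member with the most positive value, from the 2 high libraries PM-OVA replicates 1 and 2.

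Every role group had a median below 0 in PM-OVA against Sham-OVA, from -0.59 in checkpoint and anaphase to -0.22 in the 2 transcription factors, with -0.51 in the spindle genes. Sham-OVA replicate 1 was the highest of the 9 OVA libraries for 40 members, and Sham-OVA replicate 3 was the lowest for 21. Without Sham-OVA replicate 1 the median was -0.35 with 39 members below 0, against a median of 0.07 over all genes. Without Sham-OVA replicate 3 it was -0.76 with 48 members below 0, against -0.13 over all genes. In that run 16 members had an unadjusted p under 0.05, against 848 of the 16795 genes. Over all alternatives and left-out libraries the median stayed between -0.81 and -0.35 and 0 members passed the adjusted threshold.

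**Figure D5:**
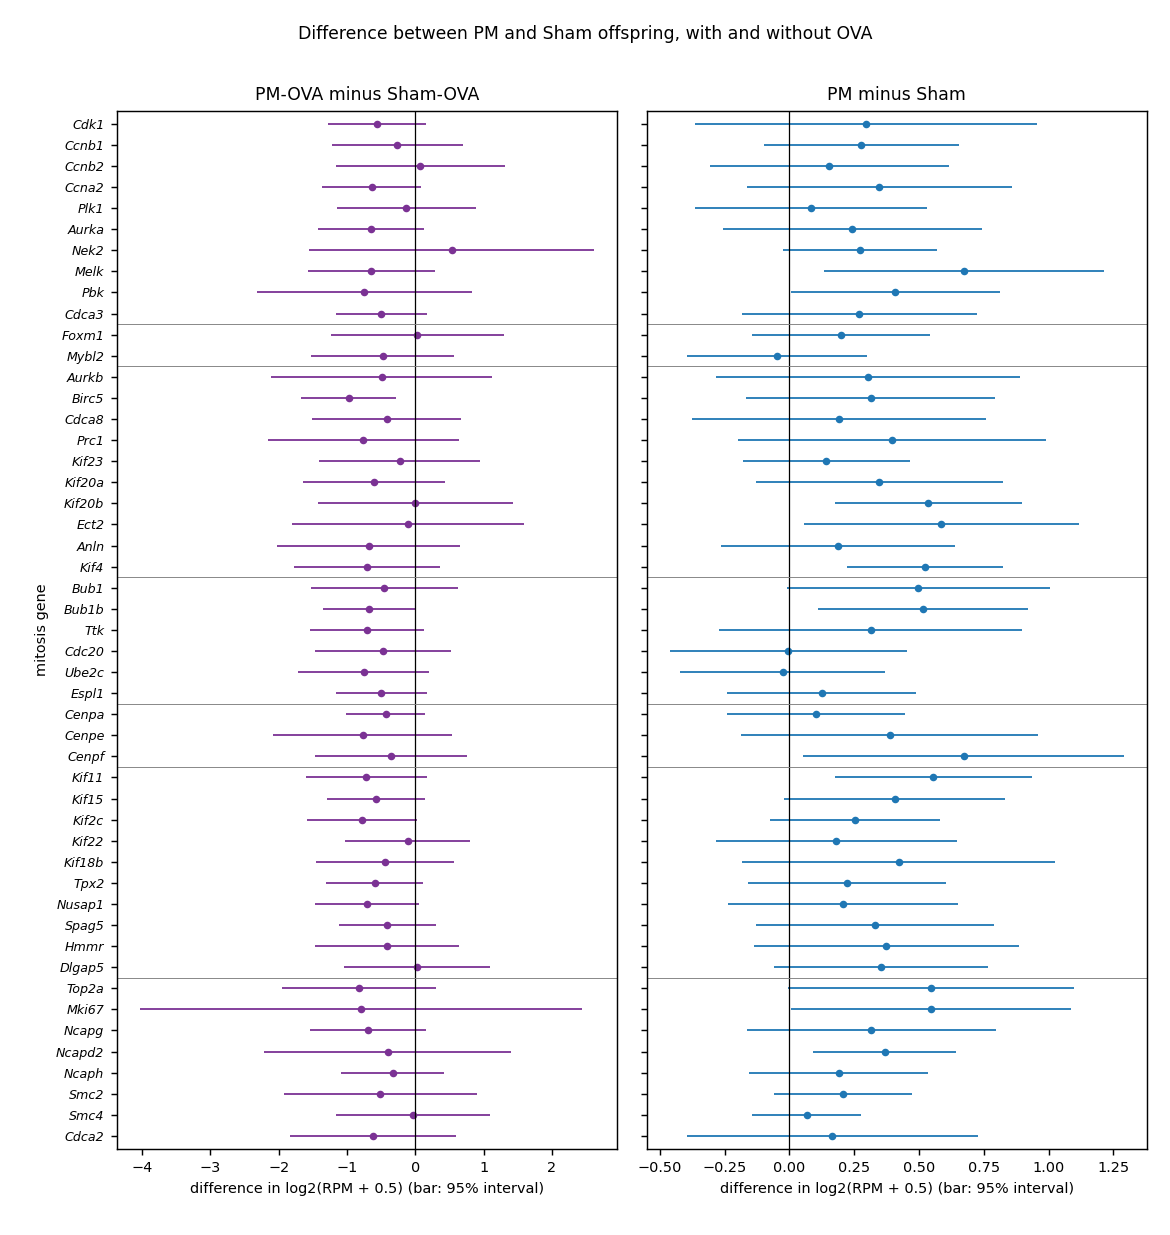
Difference in log2(RPM + 0.5) with its 95% interval for each member, PM-OVA minus Sham-OVA on the left and PM minus Sham on the right, on axes of different length. Most points lie left of 0 in the challenged offspring and right of 0 in the saline offspring, and the 95% interval leaves out 0 for 2 members on the left and 10 on the right.

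The third question was whether maternal PM2.5 moved the same genes in unchallenged lung. In PM against Sham, 0 of the 49 and 0% of all genes passed at an adjusted p under 0.05 (limma), and none of the 49 with DESeq2 or edgeR. In limma 10 members had an unadjusted p under 0.05 (4.35% of all genes). DESeq2 gave 13 members at this level, against 843 of the 16795 genes, and edgeR 13, against 783. The fitted difference was above 0 in 46 of the 49, with a median of 0.30, against 55.1% of all genes. The smallest p belonged to Kif4, with a difference of 0.52 ± 0.14 (SE) (adjusted p = 0.898, limma), followed by Kif20b with 0.54 ± 0.17 (SE) (adjusted p = 0.898) and Kif11 with 0.56 ± 0.18 (SE) (adjusted p = 0.898). Their ranges overlapped between PM and Sham. The differences of Melk, Mki67, Top2a and Kif15 were 0.67 ± 0.26 (SE), 0.55 ± 0.25 (SE), 0.55 ± 0.26 (SE) and 0.41 ± 0.20 (SE).

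PM replicate 5 was the highest of the 14 saline libraries for 44 of the 49 members. It held 25.8 RPM of Top2a, 12.7 RPM of Cdk1 and 40.3 RPM of Mki67, where the next highest PM libraries held 11.9, 4.41 and 21.2 RPM. Summed cell type markers of this library also lay outside the range of the other 6 PM libraries in most lists. Those of plasma cells, NK cells, monocytes and red blood cells lay within it. Interstitial macrophage markers were 406 RPM against 219 to 306 RPM, and fibroblast markers 3414 against 2387 to 3011 RPM. Summed markers of capillary endothelial cells were 1672 RPM against 4438 to 5420 RPM, alveolar type 2 markers 31549 against 16977 to 19542 RPM, and alveolar macrophage markers 140.4 against 262 to 341 RPM. Without it the median of the members was 0.14, with 42 above 0 and 6 at an unadjusted p under 0.05. Of the 16795 genes, 9354 were then above 0 and 951 had such a p. Without Sham replicate 1 the median of the members was 0.32 and 10 had such a p, against 809 of all genes.

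The interaction of maternal exposure and OVA asks whether the response to OVA differed between the cohorts, and it shares all libraries with the comparisons above. No member (0 of 49) and 0% of all genes passed at an adjusted p under 0.05 in the limma fit of all 4 groups, and none of the 49 with DESeq2 or edgeR. In limma 14 members had an unadjusted p under 0.05 (5.08% of all genes). DESeq2 gave 28 members at this level, against 1595 of the 16795 genes, and edgeR 26, against 1388. The interaction term was below 0, a smaller rise or a deeper fall in PM offspring, in 48 of the 49, with a median of -0.80, against 50.8% of all genes. Bub1b, Birc5 and Kif11 had the smallest p, with terms of -1.20 ± 0.35 (SE) (limma, adjusted p = 0.597), -1.29 ± 0.39 (SE) (adjusted p = 0.613) and -1.27 ± 0.39 (SE) (adjusted p = 0.635). The terms of Top2a, Melk and Kif15 were -1.38 ± 0.54 (SE), -1.32 ± 0.46 (SE) and -0.98 ± 0.36 (SE), and Mki67 had -1.35 ± 1.23 (SE), all with an adjusted p above 0.05. With array weights, which give libraries with a large scatter less influence, 24 members passed, all below 0, against 23.6% of all genes below and 3.88% above. Without the 3 shallow OVA libraries 3 passed below 0, Bub1b, Birc5 and Kif2c, and Nek2 passed above 0, against 0.649% of all genes below 0 and 3.64% above. In that fit PM-OVA was replicates 1 and 2 alone. Under every other setting and with any 1 library left out, 0 members passed.

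Levels of different genes were compared per kilobase of exon. In Sham the highest members were Smc4 (9.56 ± 1.19), Smc2 (2.65 ± 0.432), Ncaph (1.84 ± 0.543), in RPM per kb with SD, and Cdc20 had 1.03 ± 0.173 (n = 7). Smc4 stood apart from the next gene by more than their SDs, and Smc2 and Ncaph lay within the sum of theirs. In Sham-OVA the highest were Cdc20 (14.3 ± 5.17), Ccna2 (12.6 ± 5.26), Cdca3 (10.1 ± 3.13), whose SDs overlapped (n = 5), while Smc4 had 7.16 ± 3.56. PM-OVA had Cdc20 (11.6 ± 7.64), Ccna2 (7.71 ± 2.07), Cdca3 (7.14 ± 2.78) at its head (n = 4), again with overlapping SDs. Ccnb1 was the lowest member in all 4 groups.

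Genes of the same pathway outside the 49 were taken from lists. Of 50 tested genes in a list of other mitosis genes, 31 rose and 4 fell in Sham-OVA, and 23 rose and 6 fell in PM-OVA (limma). Knstrn, a kinetochore protein, had the largest rise in Sham-OVA, 3.34 ± 0.22 (SE, adjusted p = 3.2e-08), and Kif18a, a kinesin that dampens chromosome movement, the largest fall, -1.20 ± 0.37 (SE, adjusted p = 0.00993), a call lost with quantile normalisation, with edgeR and at one depth. Of 19 S phase genes 13 rose and 1 fell in Sham-OVA, and 10 rose and 0 fell in PM-OVA. Rrm2, a subunit of ribonucleotide reductase, rose by 3.47 ± 0.26 (SE, adjusted p = 8.0e-08) in Sham-OVA, and the replication helicase subunit Mcm7 had -0.92 ± 0.35 (SE, adjusted p = 0.0313), a call lost in 11 of 25 alternatives and left-out libraries. Of 13 G1 cyclins and kinases 8 rose and 2 fell in Sham-OVA and 6 and 3 in PM-OVA, from Ccne1, cyclin E1, with 3.61 ± 0.23 (SE, adjusted p = 2.3e-08), to Cdk6, a kinase of G1, with -1.20 ± 0.19 (SE, adjusted p = 6.8e-05).

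Falls outnumbered rises in 4 other lists. Of 12 CDK inhibitors and pocket proteins 1 rose and 7 fell in Sham-OVA, and 1 and 9 in PM-OVA, with Cdkn2a, which encodes p16 and p19ARF, at 2.61 ± 0.30 (SE, adjusted p = 3.3e-06) and Cdkn1c, p57, at -1.79 ± 0.21 (SE, adjusted p = 4.9e-06) in Sham-OVA. Of 16 subunits and partners of the anaphase-promoting complex 3 rose and 9 fell, and 2 and 7 in PM-OVA, with Fzr1, the activator that follows Cdc20, at 1.65 ± 0.13 (SE, adjusted p = 1.5e-07) and the subunit Anapc5 at -3.82 ± 0.21 (SE, adjusted p = 6.8e-09) in Sham-OVA. Of 12 cohesin genes 1 rose and 9 fell, and 0 and 10 in PM-OVA, with the acetyltransferase Esco2 at 1.61 ± 0.37 (SE, adjusted p = 0.00153) and the ring subunit Smc3 at -3.56 ± 0.49 (SE, adjusted p = 1.8e-05) in Sham-OVA. Of 7 DREAM and MuvB genes 1 rose and 2 fell, and 0 and 3 in PM-OVA, with the histone chaperone Rbbp4 at 0.65 ± 0.18 (SE, adjusted p = 0.00436) and Tfdp2, a partner of E2F factors, at -2.44 ± 0.21 (SE, adjusted p = 3.3e-07) in Sham-OVA. Of all genes tested, 47.5% fell in Sham-OVA and 45.2% in PM-OVA.

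Markers of immune and structural cell types were counted in the same comparisons, where 20.6% of all genes rose and 47.5% fell in Sham-OVA, with 20.1% and 45.2% for PM-OVA. Of 8 plasma cell markers 6 rose and 1 fell in Sham-OVA and 6 and 1 in PM-OVA, and their summed level was 365 to 569.6 RPM in Sham, 402 to 544 in PM, 7494 to 12715 in Sham-OVA and 6817 to 11144 in PM-OVA. Of 8 interstitial macrophage markers 8 rose and 0 fell in Sham-OVA and 7 and 0 in PM-OVA, with sums of 145 to 267, 219 to 406, 1655 to 2524 and 1448 to 2176 RPM in the same order. Of 7 B cell markers 2 rose and 0 fell in Sham-OVA and 2 and 0 in PM-OVA (sums 81.1 to 325, 87.6 to 256, 231 to 646 and 208 to 393 RPM), and of 7 T cell markers 3 rose and 0 fell in Sham-OVA and 2 and 0 in PM-OVA (sums 82.9 to 185, 76.3 to 146, 104 to 268 and 114 to 207 RPM). Of 5 tested eosinophil markers 4 rose and 1 fell in Sham-OVA and 4 and 1 in PM-OVA, with sums of at most 14.01 RPM in Sham and 48.1 RPM in Sham-OVA. Of 7 fibroblast markers 0 rose and 4 fell in Sham-OVA and 0 and 4 in PM-OVA. Sham-OVA replicate 1 was the highest Sham-OVA library for 45 of the 49 members. Among the lists above, it was also the highest of its group for the summed B cell, T cell, interstitial macrophage and fibroblast markers. Its plasma cell and eosinophil sums lay within the range of the other libraries of its group. In the lists not yet described, 1 rose and 2 fell of 6 germinal centre B cell markers in Sham-OVA (1 and 3 in PM-OVA), 0 rose and 1 fell of 2 thymocyte markers in Sham-OVA (0 and 1 in PM-OVA) and 0 rose and 5 fell of 6 NK cell markers in Sham-OVA (0 and 6 in PM-OVA). For myeloid cells, 3 rose and 4 fell of 8 alveolar macrophage markers in Sham-OVA (4 and 4 in PM-OVA), 1 rose and 0 fell of 6 monocyte markers in Sham-OVA (2 and 0 in PM-OVA) and 2 rose and 2 fell of 7 dendritic cell markers in Sham-OVA (2 and 0 in PM-OVA). In addition, 2 rose and 3 fell of 7 alveolar type 2 cell markers in Sham-OVA (2 and 3 in PM-OVA), 1 rose and 5 fell of 7 alveolar type 1 cell markers in Sham-OVA (0 and 5 in PM-OVA) and 2 rose and 3 fell of 7 capillary endothelial cell markers in Sham-OVA (2 and 3 in PM-OVA). In addition, 0 rose and 0 fell of 7 multiciliated cell markers in Sham-OVA (5 and 0 in PM-OVA), 1 rose and 0 fell of 5 deuterosomal cell markers in Sham-OVA (1 and 1 in PM-OVA) and 2 rose and 0 fell of 5 red blood cell markers in Sham-OVA (3 and 0 in PM-OVA). Alveolar type 2 markers, which define lung, summed to at least 13922 RPM in every library. For these later lists, Sham-OVA replicate 1 had the highest sums of its group for germinal centre B cells, thymocytes and dendritic cells. It had the lowest for alveolar macrophages, capillary endothelial cells, multiciliated cells and red blood cells, and lay within the others for the rest. Which cells carried the transcripts of the mitosis genes was not measured, and the part of these cell types in the result was not tested.

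Some members share more than 10% of their exon bases with a neighbour on the opposite strand, namely Kif20a with Cdc23 (29.3%), Ube2c with Tnnc2 (22.8%), Kif4 with Pdzd11 (15.1%), Ncapg with Lcorl (13.4%), Ccna2 with Exosc9 (12.5%), Prc1 with Rccd1 (11.1%). The library kit marks strand, whether the counting used it was not stated, and the values of these genes may include reads of the neighbour. Averaged over all libraries, the neighbours had 34.3 RPM (Cdc23), 20.2 RPM (Exosc9), 17.6 RPM (Pdzd11), 17.4 RPM (Lcorl), 10.3 RPM (Rccd1) and 0.0647 RPM (Tnnc2).

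On GRCm38 (GENCODE), Mki67 lies on chromosome 7 from 135689784 to 135716361, Cdk1 on chromosome 10 from 69335146 to 69352938, Cdc20 on chromosome 4 from 118432901 to 118437352 and Top2a on chromosome 11 from 98992943 to 99024189, all on the minus strand. The 4 genes are spread over different chromosomes, and the printed promoters end at or near these starts.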

How the data were processed

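Lung RNA-Seq libraries of 23 offspring were grouped by sample title. The authors used Trimmomatic for trimming, Bowtie2 for alignment (GRCm38) and SeqMonk for quantification. The deposited values are RPM per gene, although the table is named after RPKM: all values (100% per library, within 0.1 reads) divide by what a single read is worth, and whole reads were recovered on that basis. Ptp4a1 is listed 2 times. RPM were transformed to log2(RPM + 0.5) and limma-trend (3.58.1, R 4.3.3, Benjamini-Hochberg) tested 16795 genes, in fits of 2 groups, and of 4 for the interaction. The study called DEGs with DESeq2 on raw counts, and alternatives used the recovered reads in DESeq2 (version 1.42.0) or edgeR (version 4.0.16), beside other pseudocounts, filters, scalings, array weights, a replicate block, a common depth and each library left out. The fits were tested on counts simulated with the same dispersion in every group. The wider spread of the OVA groups was not simulated. Members and gene lists were chosen with earlier results of these data known. Genes were named by rule: Mki67, Top2a, Melk and Kif15 throughout, the extremes of each role or pathway list in Sham-OVA against Sham, the smallest p of the other comparisons, and members below 0 after OVA. Ube2c, Espl1 and Ccnb1 were named after their values were seen. Cdca2, Cdca3, Ncaph, Pbk, Prc1 and Aurkb were too.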

Additional observations from a re-analysis of the deposited data

Results flagged for a closer look

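In a test for a library that stands apart from the others of its group, Dixon's ratio on log2(RPM + 0.5), 8 of 116 combinations of a named member (or the mean over the 49) and a group passed. Chance flags about 1 in 20 groups, and the genes share libraries. PM replicate 5 stood above the other PM libraries in Melk, at 4.64 RPM, Foxm1, at 14.1 RPM, Ect2, at 9.51 RPM, Kif15, at 5.58 RPM, and Ncapg, at 2.88 RPM. It also stood apart in the mean of log2(RPM + 0.5) over the 49 members, at 2.63. Bub1 was low in PM-OVA replicate 3, at 1.33 RPM, and Smc4 was low in Sham-OVA replicate 3, at 9.01 RPM. Both of the latter libraries are among the 3 shallow OVA libraries. No interaction of a member passed the adjusted threshold (limma), so no member was singled out for a difference between the cohorts.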

How the results depend on the processing

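At the threshold of the study, limma gave 14 risen members in Sham-OVA and 0 in PM-OVA. DESeq2 gave 34 and 17 and edgeR 22 and 0 at that threshold, combinations added after the data were seen. The count of risen members was within 1.5 times the value above under every other alternative and left-out library run. The median of the members in Sham-OVA moved to 2.33 with quantile normalisation, 2.80 with DESeq2 and 2.87 with edgeR, and in PM-OVA to 1.60 and 1.60 with DESeq2 and edgeR. Members with an interaction numbered 24 with array weights and 4 without the 3 shallow OVA libraries. The latter setting was added after the data were seen and left PM-OVA replicates 1 and 2 alone. With a replicate block 35 members rose and 1 fell in Sham-OVA, against 2908 and 7117 of the 16795 genes. In PM-OVA 26 rose and 0 fell with the block, against 2288 and 5694 genes. With it, 0 members differed in PM-OVA against Sham-OVA, in PM against Sham or in the interaction. Under the block the calls of Kif20b, Smc4 and Top2a in PM-OVA and of Cenpf and Mcm7 in Sham-OVA were lost. The replicate numbers are those of the sample titles, and the library names number most OVA libraries otherwise. The block and a check of same-numbered libraries therefore could not settle whether animals were paired. Same-numbered libraries did not deviate from their group means together throughout. Between PM-OVA and Sham-OVA the correlation of these deviations was 0.60 and 0.62 for replicates 1 and 3. It was 0.22 and -0.31 for replicates 2 and 4. Replicate 3 was a shallow library in both groups, and replicate 4 in PM-OVA alone. The part of depth in these correlations was not tested. Leaving out 1 library gave medians of 1.58 to 2.12 in Sham-OVA, 0.88 to 1.26 in PM-OVA, -0.76 to -0.35 in PM-OVA against Sham-OVA and 0.14 to 0.38 in PM against Sham.

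The fitted difference changed sign under at least 1 alternative or left-out library for 5 members in Sham-OVA (Ect2, Foxm1, Kif23, Mki67 and Ncapd2) and 13 in PM-OVA (Anln, Cenpe, Cenpf, Foxm1, Kif23, Kif4, Mki67, Mybl2, Ncapd2, Ncaph, Nek2, Pbk and Smc2), none of which passed the test on all libraries with the settings of the report. It did so for 15 members in PM-OVA against Sham-OVA, 12 in PM against Sham and 9 in the interaction. For Mki67, Sham-OVA against Sham turned to 0.00902 with median-of-ratios scaling, 0.21 with quantile normalisation, 0.44 with array weights, 0.68 with DESeq2, 0.84 with edgeR and 0.66 without the 3 shallow OVA libraries, and it ran from -0.73 to 0.66 with 1 library left out. PM-OVA against PM turned to 0.27 with DESeq2, 0.35 with edgeR and 0.73 without the shallow libraries. PM-OVA against Sham-OVA turned to 0.20, 0.15 and 0.61 under the same settings and ran from -2.003 to 0.14 with 1 library left out. The interaction of Mki67 turned to 0.0623 without the shallow libraries. The cause was not tested. Shares of promoters with TTTGAA and CCAAT were 72.5% and 67.5% in a window from 100 bases before the start, against 9.23% and 26.3% of all genes. Depth limits the low members most in Sham-OVA replicate 3.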
